A study of Mus musculus with 18 samples.

Results

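Mitochondrial tRNA fragments (mt-tRNA fragments) in mouse sperm are short RNAs whose sequence lies within a tRNA of the mitochondrial genome. They were taken as every distinct small RNA sequence whose first annotation name in the deposited files was a mitochondrial tRNA. This gave 1133 of 207217 distinct sequences and 320067 of 2358974 reads over 4 libraries. The study compared mice lacking Isca2, which helps to build iron-sulfur clusters in mitochondria, with wild-type mice. The sperm libraries were 2 from Isca2-/- (KO) and 2 from wild-type (WT) animals. The labels give the genotype as the only difference between them. The strain, the age of the mice and the part of the reproductive tract from which sperm came are not given in the sources used here. The labels do not say that the 2 libraries of a genotype came from separate animals, so a p-value here speaks only of the spread between libraries, and that spread may be technical. The files give no genome position, so a fragment of a mitochondrial tRNA and of a nuclear copy of the same sequence cannot be told apart. Where 2 values of a genotype are given, replicate 1 comes before replicate 2.

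Mitochondria translate the proteins of their own genome with their own set of tRNAs. These tRNAs are cut out of long transcripts that cover a whole strand of the mitochondrial DNA, and an enzyme then adds the bases CCA to the 3′ end, where the amino acid is attached. Pieces of mature tRNAs are an abundant class of small RNA in sperm, best known for tRNAs encoded in the nucleus, and the mitochondria of sperm are packed into the midpiece of the tail.

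The sequences that carried most reads are shown first, because the class turned on a few of them. They are the most abundant sequence of each of the 6 leading mt-tRNAs and the 4 most abundant of the class, in order of tRNA. A sequence of mt-tRNA-His that ends in added bases was chosen after its values were seen. All are given 5′ to 3′ as DNA letters. Capitals mark the anticodon in the first 8 and the 2 added cytosines in the others. In each name, the bases counted are those of the fragment.
mt-tRNA-His, 27 bases: caaaaaacattagactGTGaatctgac
mt-tRNA-His, 25 bases: caaaaaacattagactGTGaatctg
mt-tRNA-His, 30 bases: caaaaaacattagactGTGaatctgacaac
mt-tRNA-His, later start, 25 bases: aaaaacattagactGTGaatctgac
mt-tRNA-Gln, 24 bases: aggtagcacggagaattTTGaatt
mt-tRNA-Ser-GCT, 26 bases: aactGCTaattcatgcttccatgttt
mt-tRNA-Ala, 35 bases: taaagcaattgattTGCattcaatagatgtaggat
mt-tRNA-Gly, 36 bases: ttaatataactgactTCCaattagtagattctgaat
mt-tRNA-Leu-TAA, 32 bases: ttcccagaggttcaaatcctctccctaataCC
mt-tRNA-His, 37 bases: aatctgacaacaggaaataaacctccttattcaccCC
The first 3 share their start and differ in how far they run past the anticodon. All 8 fragments with a marked anticodon run past it.

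The KO libraries held 703133 and 746812 reads of 20 to 45 nucleotides, and the WT libraries 205993 and 703036. Reads of 28S ribosomal RNA took 19.3% and 21.0% of the KO libraries, against 25.2% and 55.2% of the WT libraries, so WT replicate 2 stood apart from the other 3. The labelled cell type was checked against known sperm small RNAs. The nuclear tRNA-Glu-CTC, the leading nuclear tRNA in these libraries, had 118414 and 80584 reads in KO and 16858 and 40346 in WT, and tRNA-Gly-GCC had 9150 and 12190 in KO and 1819 and 5435 in WT. The sperm microRNAs mir-34b, mir-34c, mir-449a and mir-191 had 0 reads in all 4 libraries (a count of 0 allows up to 3), where named microRNAs were in all 0.0757% to 0.328% of reads. Of 15 microRNA markers of epididymal epithelium, blood, muscle and stroma, and liver, 6 had a read, with 1 and 5 reads in the KO libraries and 1 and 3 in the WT libraries. Those of liver and the defining blood microRNA mir-451a were at 0 throughout.

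The share of mt-tRNA fragments in the small RNA reads varied widely between libraries, and the genotypes overlapped. They were 19.6% (95% exact Clopper-Pearson interval 19.5 to 19.7) and 13.6% (13.6 to 13.7) of reads in the KO libraries, against 20.3% (20.2 to 20.5) and 5.50% (5.44 to 5.55) in the WT libraries. The KO mean was 16.6 ± 4.20% and the WT mean 12.9 ± 10.5% (SD, n = 2 each; exact two-sided permutation test, p = 1.0). The highest and the lowest share were both in WT libraries, and WT replicate 2, the library rich in 28S rRNA, was the lowest. Without WT replicate 2 the KO mean minus the WT value was -3.73 percentage points, against 3.69 with it. Of reads outside all ribosomal RNA labels, mt-tRNA fragments were 28.1% and 19.9% in KO and 31.4% and 17.3% in WT. The WT replicates were then closer in ratio but nearly as far apart in percentage points as before. The KO replicates lay further apart in percentage points. On that base the KO mean minus the WT mean was -0.36 percentage points. In bulk libraries like these, fewer cells and less RNA per cell cannot be told apart. Intervals here and below cover counting error only. Whether the reads carried molecular identifiers is not given in the sources used here.

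The class was set against the other RNAs most like it, fragments of nuclear tRNAs and of the 12S and 16S rRNAs of the mitochondria. Nuclear tRNA fragments were 19.4% and 14.4% of reads in KO and 10.5% and 9.10% in WT, so that 1.01 and 0.9497 mt-tRNA reads stood beside each nuclear tRNA read in KO and 1.93 and 0.604 in WT. The WT ratios lay on both sides of the KO ratios (exact two-sided permutation test, p = 1.0). The KO mean minus the WT mean of this ratio was -0.29, and without WT replicate 1 it was 0.38. Mitochondrial rRNA fragments took a steadier part of each library, 2.23% and 2.14% in KO and 2.48% and 2.12% in WT. Per mitochondrial rRNA read there were 8.77 and 6.36 mt-tRNA reads in KO and 8.21 and 2.59 in WT, again with overlap. The KO mean minus the WT mean was 2.17 and, without WT replicate 2, -0.64.

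Nearly the whole class came from mt-tRNA-His, the tRNA that reads the histidine codons with the anticodon GTG. Its gene, TrnH, lies at chrMT:11546-11612 (GRCm38.p6, the build of the RefSeq table). It gave 302346 of the 320067 reads, or 94.5%, and 508 of the 1133 sequences. It held 96.9% and 91.2% of the class in the KO libraries and 95.9% and 92.8% in the WT libraries. The WT libraries lay between the KO libraries (KO mean 94.0 ± 4.06%, WT mean 94.4 ± 2.17%, SD, n = 2 each). The effective number of mt-tRNAs, the inverse of the summed squared shares, which is 1 where a single tRNA holds every read, was 1.06 and 1.20 in KO and 1.09 and 1.16 in WT. Nuclear tRNA fragments were less concentrated in every library. Their leading source, tRNA-Glu-CTC, held 86.9% and 75.1% of them in KO and 77.8% and 63.1% in WT, with effective numbers of 1.32 and 1.71 in KO and 1.61 and 2.23 in WT.

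The class was also concentrated in few sequences. Of the 1133 sequences, 362 were found in all 4 libraries and held 98.9% of the reads, while 242 had a single read in all. The 10 leading sequences of each library held 79.7% and 74.6% of its mt-tRNA reads in KO and 80.9% and 62.2% in WT. The effective number of sequences was 5.53 and 6.71 in KO, against 4.90 and 12.6 in WT. WT replicate 2 was thus the most spread out and WT replicate 1 the least, with the KO libraries between them. The leading 27-base sequence by itself held 38.8% and 34.6% of the class in KO and 41.7% and 23.6% in WT.

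The fragments of mt-tRNA-His were placed on a composite built from the overlapping reads, which runs from the sequence marked in the files as a 5′ end to those marked as 3′ ends. It has 68 bases, 1 more than the RefSeq gene, with the anticodon at bases 31 to 33, and every mt-tRNA-His read could be placed on it. Its 5′ end, from which bases are numbered, rests on the 1 sequence so marked. That start was seen in KO replicate 1 alone, with 0.00033% of all mt-tRNA-His reads. Most reads started at the same base. Base 15, where the first 3 printed sequences begin, was the start of 75.6% and 74.2% of mt-tRNA-His reads in KO and of 80.0% and 66.5% in WT. Starts at bases 15 to 17 together made up 92.8% and 91.7% in KO and 93.5% and 84.0% in WT. A start before base 15, in the 5′ arm, was rare in all 4 libraries, with 342 reads or 0.113% of mt-tRNA-His reads.

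The 3′ ends of these fragments were more spread than their starts. The commonest end was base 41, 8 bases past the anticodon, with 49.7% and 47.4% of mt-tRNA-His reads in KO and 50.8% and 33.4% in WT. Base 39 followed with 14.7% and 16.6% in KO and 15.4% and 10.5% in WT, and base 44 with 11.2% and 10.1% in KO and 10.8% and 12.5% in WT. Reads that held the whole anticodon were 94.5% and 93.8% in KO and 95.1% and 87.2% in WT. The typical fragment of this tRNA was therefore an inner piece that spans the anticodon loop and lacks both ends of the tRNA. In the share of ends at base 41 and of reads with the anticodon, WT replicate 1 lay near the KO libraries and WT replicate 2 apart from them. Reads that started after the anticodon were 4.92% and 5.65% of mt-tRNA-His reads in KO and 4.34% and 12.4% in WT. The KO mean minus the WT mean of this share was -3.07 percentage points, and 0.95 without WT replicate 2.

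The bases added after the end of the tRNA could be read in fragments that reach it. Of the mt-tRNA-His reads, 1.59% and 1.91% in KO and 1.54% and 4.70% in WT reached the last base of the composite, 6210 reads in all. Most of these carried CC and stopped before the final A, as in the printed 37-base sequence. CC had been added in 86.0% and 86.1% of them in KO, against 82.6% and 71.7% in WT, and both KO libraries lay above both WT libraries. The whole CCA was found in 3.62% and 3.49% in KO and 2.42% and 1.423% in WT. No added base was found in 5.03% and 4.84% in KO and 7.42% and 12.9% in WT, and a single C in 5.31% and 5.57% in KO and 7.58% and 14.0% in WT. KO libraries were thus higher in the longer ends and lower in the shorter ends, with no overlap of the groups. For CC, the KO mean minus the WT mean was 8.92 percentage points, 14.4 without WT replicate 1 and 3.49 without WT replicate 2. Each of these 4 differences had an exact two-sided permutation p of 0.333, the smallest that 2 against 2 libraries can give, and the shares of a library add up to its total, so they are not separate results. For all 4 kinds of end the interval of WT replicate 1 overlapped that of KO replicate 1. For CC these were 84.5 to 87.5% in KO replicate 1 and 84.4 to 87.7% in KO replicate 2, against 79.4 to 85.5% in WT replicate 1.

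The same ending was seen in the other mt-tRNAs. CCA is not in the gene, so a fragment that carries added bases is marked in the files as having no genome match. Outside mt-tRNA-His, 1815 reads had no genome match, of which 1684, or 92.8%, ended in CC and 2 in CCA. For some tRNAs nearly every fragment had no genome match, whatever its last bases. It was so for 76 of 76 reads of mt-tRNA-Leu-TAG and for 478 of 504 reads of mt-tRNA-Leu-TAA, whose leading sequence is printed with its added CC. In mt-tRNA-His, by contrast, 1.90% of reads had no genome match. Reads of nuclear tRNAs that ended in any A were 0.00734% and 0.00932% in KO and 0.0231% and 0.0109% in WT, against 8.83% and 9.94% of mt-tRNA reads in KO and 9.10% and 7.59% in WT. Of all small RNA reads, 5.30% and 5.43% in KO and 5.53% and 1.79% in WT ended in A. WT replicate 2, which had the lowest share of CCA ends in mt-tRNA-His, was thus also the lowest there. How the processing of 3′ ends, or the share of reads ending in A in a library, entered the share of CC over CCA was not tested.

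Fragment length also differed between the libraries. At the leading length of 27 nucleotides were 39.7% and 35.5% of mt-tRNA reads in KO, against 42.4% and 25.01% in WT. Fragments of 30 nucleotides or longer were 14.98% and 14.7% of the class in KO, against 18.7% and 30.2% in WT. Both KO libraries lay below both WT libraries (KO mean 14.9 ± 0.187%, WT mean 24.4 ± 8.11%, SD, n = 2 each; exact two-sided permutation test, p = 0.333, the smallest possible). The KO mean minus the WT mean was -9.58 percentage points, and it was -15.3 without WT replicate 1 and -3.84 without WT replicate 2. In nuclear tRNA fragments the same share was 4.03% and 5.04% in KO and 6.67% and 4.68% in WT, with overlap. Of all small RNA reads, 23.9% and 26.97% in KO and 27.96% and 16.9% in WT were this long. WT replicate 2 thus had the largest share of long reads among mt-tRNA fragments and the smallest among reads of all kinds. Outside mt-tRNA-His the share of the longer fragments was 45.6% and 30.001% in KO and 54.9% and 46.6% in WT. Both KO libraries lay below both WT libraries, KO replicate 1 only just. Taken singly, mt-tRNA-Gln and mt-tRNA-Ser-GCT went the same way. mt-tRNA-Met went the other way, with 68.5% and 60.9% in KO and 46.4% and 47.7% in WT. In mt-tRNA-Ala, mt-tRNA-Gly, mt-tRNA-Leu-TAA and mt-tRNA-Val the groups overlapped.

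All 22 mt-tRNAs of the RefSeq annotation had at least 1 read, with 20 and 20 seen in the KO libraries and 21 and 19 in the WT libraries. Counts after mt-tRNA-His fell off steeply. mt-tRNA-Gln (chrMT:3772-3842) had 9373 reads, or 2.93% of the class. It held 45.6% and 62.7% of the reads outside mt-tRNA-His in KO and 44.4% and 37.5% in WT. Its gene is written in the other strand of the mitochondrial DNA from that of mt-tRNA-His, with 7 others of the 22. These 8 tRNAs gave 1.81% and 6.30% of the class in KO and 2.44% and 3.36% in WT. KO replicate 2 was highest in both measures, and KO replicate 1 was lowest in the second.

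mt-tRNA-Ser-GCT followed with 4082 reads. Its gene (chrMT:11613-11671) begins at the base after the end of TrnH, and that of mt-tRNA-Leu-TAG (chrMT:11671-11741) begins at its last base, so the 3 are neighbours cut from 1 transcript. Their reads were 302346, 4082 and 76 in genome order. Neighbours that are transcribed together thus differed widely in fragment reads. mt-tRNA-Ser-GCT was 26.9% and 16.5% of reads outside mt-tRNA-His in KO and 17.8% and 41.6% in WT, with overlap. mt-tRNA-Ala (chrMT:5018-5086) had 1283 reads, mt-tRNA-Gly (chrMT:9391-9458) 996, mt-tRNA-Leu-TAA (chrMT:2676-2750) 504, mt-tRNA-Val 426 and mt-tRNA-Met 290. The other 14 had between 1 and 185 reads in all.

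These tRNAs also differed in the kind of fragment. The leading length of mt-tRNA-Gln was 24 nucleotides in all 4 libraries. That of mt-tRNA-Ser-GCT was 26 in both KO libraries and 37 and 26 in WT. For mt-tRNA-Ala it was 35 in both KO libraries and 33 and 38 in WT, and for mt-tRNA-Val 40 in both KO libraries and 38 and 37 in WT. For mt-tRNA-Ala and mt-tRNA-Val the WT lengths rest on few reads, 176 and 166 for the first and 57 and 22 for the second. In mt-tRNA-Ala the leading length held 21.0% and 18.7% of the WT reads. Long fragments, of 30 nucleotides or more, were 98.0% and 91.4% of mt-tRNA-Ala reads in KO and 93.8% and 95.8% in WT. For mt-tRNA-Gln they were 22.5% and 14.1% in KO and 34.3% and 25.9% in WT. mt-tRNA-Ala gave long fragments in every library, then, and mt-tRNA-Gln mostly short ones. A shared start was common too. Over the 4 libraries together, 91.9% of mt-tRNA-Gln reads began with the first 15 bases of the printed sequence, as did 95.1% of mt-tRNA-Ser-GCT reads and 15.7% of mt-tRNA-Gly reads. For mt-tRNA-Ala the share was 61.7% and 56.3% in KO, against 47.7% and 24.7% in WT. Both KO libraries lay above both WT libraries there, a separation noticed after the values were seen and not tested.

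KO and WT sperm were then compared for each mt-tRNA in 1 model over all annotation names (edgeR quasi-likelihood test, Benjamini-Hochberg adjustment over 63 names tested). Of the 22 mt-tRNAs, 16 passed the filter on low counts, and the other 6 had 1 to 16 reads in all. None of the 16 passed an adjusted p of 0.05, and 0 of all 63 names did (0%). At an unadjusted p under 0.05 there were also 0 mt-tRNAs, against 3.17% of all names higher and 1.59% lower in KO. DESeq2 and limma-voom likewise called 0. The median log2 fold change of the 16, KO over WT, was 0.24, against 0.01 for all names. The signs of single mt-tRNAs depend on the scaling. With ribosomal RNA names left out, log2 fold changes were -0.21 for mt-tRNA-His, 0.39 for mt-tRNA-Gln and 0.71 for mt-tRNA-Pro, against 0.31, 0.93 and 1.23 here. Those of mt-tRNA-Met and mt-tRNA-Glu were -1.23 and -1.24, against -0.70 and -0.71 here.

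mt-tRNA-His had 207055 and 141262 CPM (counts scaled to a common library size with TMM factors) in KO, against 204627 and 76663 in WT. KO replicate 1 and WT replicate 1 were nearly level and WT replicate 2 was the lowest, so the groups overlapped. Its log2 fold change was 0.31 (SE 0.62, edgeR adjusted p = 0.960). It was -0.22 without WT replicate 2, -0.31 without KO replicate 1 and -0.21 with ribosomal RNA left out, so these data give it no direction. mt-tRNA-Gln had 3008 and 8576 CPM in KO and 3871 and 2212 CPM in WT. Only KO replicate 2 was above both WT libraries, with a log2 fold change of 0.93 (SE 0.60, edgeR adjusted p = 0.896), which was -0.088 without KO replicate 2.

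The mt-tRNAs named for the smallest p in each direction were mt-tRNA-Pro beside mt-tRNA-Gln, and mt-tRNA-Met and mt-tRNA-Glu on the other side. mt-tRNA-Pro (chrMT:15356-15422) had 41.9 and 39.5 CPM in KO, against 20.4 and 14.96 CPM in WT, from 27 and 26 reads in KO and 4 and 7 in WT. Both KO libraries lay above both WT libraries, with a log2 fold change of 1.23 (SE 0.86, edgeR adjusted p = 0.938). mt-tRNA-Leu-TAG, with 45.0 and 45.6 CPM in KO and 20.4 and 27.8 CPM in WT, was the only other mt-tRNA with separated groups. These were 2 of 16 mt-tRNAs with both KO libraries above both WT libraries, where 20.6% of all names were, and 0 of 16 had both below, where 11.1% of all names did. mt-tRNA-Met (chrMT:3845-3913), whose tRNA starts translation in mitochondria and is also used within proteins, had 83.8 and 175 CPM in KO and 285 and 139 CPM in WT. mt-tRNA-Glu (chrMT:14071-14139) had 52.8 and 113 CPM in KO and 188 and 85.5 CPM in WT. In both, KO replicate 1 was lowest, WT replicate 1 was highest and the groups overlapped. Their log2 fold changes were -0.70 (SE 0.81) and -0.71 (SE 0.86), each with an edgeR adjusted p of 0.960. Without WT replicate 1 they were -0.086 and -0.031, without WT replicate 2 -1.14 and -1.19, and without KO replicate 2 -1.40 and -1.43.

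Since a tRNA yields several fragments, the comparison was repeated for each distinct sequence (edgeR quasi-likelihood test, adjusted over 2527 annotated sequences tested). Of these, 260 were mt-tRNA fragments, 199 of them from mt-tRNA-His. None of the 260 was called, where 18 of all 2527, or 0.712%, were (0.594% higher and 0.119% lower in KO). DESeq2 called 1 of the mt-tRNA fragments, and 0.673% of all sequences (0.356% higher and 0.317% lower). Without WT replicate 1, which left WT replicate 2 as the lone WT library, assumed to vary like the KO libraries, edgeR called 46 of 299, of which 20 were higher and 26 lower in KO. That fit called 488 of all 3502 sequences, or 13.9% (6.28% higher and 7.65% lower), so the 15.4% of mt-tRNA fragments was near the share of all sequences. At an unadjusted p under 0.05, 4 mt-tRNA fragments were higher and 19 lower in KO, where 5.03% and 5.7% of all sequences were. Both KO libraries lay above both WT libraries for 39 of the 260 and below for 62, where the shares of all sequences were 23.1% above and 17.1% below. The median log2 fold change was -0.06 for the mt-tRNA fragments and 0.07 for all sequences. The leading 27-base sequence had 85504 and 50694 CPM in KO and 101046 and 24049 CPM in WT, with overlap (log2 fold change 0.12, SE 1.05, edgeR adjusted p = 0.988).

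The mt-tRNA-His fragments were split by whether they start after the anticodon. Of 66 tested sequences from this 3′ part, 28 had a log2 fold change above 0, the median was -0.18, and at an unadjusted p under 0.05, 1 was higher and 11 were lower in KO. Both KO libraries lay below both WT libraries for 22 of them and above for 9. Of the other 133 sequences, which start at or before the anticodon, 65 were above 0 with a median of -0.06, and 2 were higher and 5 lower at that p. For these the KO libraries lay below for 31 and above for 20. Of all 2527 sequences tested, 5.03% were higher and 5.7% lower at that p. Both KO libraries lay above both WT libraries for 23.1% of them and below for 17.1%. By reads, WT replicate 1 had the smallest share from the 3′ part (4.34%) and WT replicate 2 the largest (12.4%). The difference between the 3′ part and the other mt-tRNA-His sequences was not tested, since overlapping fragments of 1 tRNA are not independent.

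The mt-tRNA fragment with the smallest p lies in this 3′ part, at bases 41 to 67 of the composite, and was chosen for printing after its value was seen.
mt-tRNA-His, 3′ part, 27 bases: caacaggaaataaacctccttattcac
It had 15 and 29 reads in KO, against 27 and 212 in WT, which are 24.0 and 41.7 CPM in KO and 156 and 560 CPM in WT. Both KO libraries were below both WT libraries, and most of its reads were in WT replicate 2. The log2 fold change was -3.44 (SE 0.96, edgeR adjusted p = 0.0731). It passed the threshold with DESeq2 (adjusted p = 0.0146), with a filter of 10 reads in 2 libraries (edgeR adjusted p = 0.0334, where 1.16% of all sequences were called, 0.937% higher and 0.223% lower) and without WT replicate 1 (edgeR adjusted p = 1.3e-06). Over all alternatives its log2 fold change lay between -4.07 and -2.30 and its adjusted p between 1.3e-06 and 0.999.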

How the data were processed

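Small RNA of sperm was analysed in 2 KO and 2 WT libraries. The deposited files hold, per the file headers, 1 line per distinct sequence with its length, its read count as made by the authors, whether it matches the genome and an annotation. The counts are not normalised. Per the submitters' processing notes, tools of the series included RSEM 1.3.1, STAR 2.6.1c, Trim Galore 0.4.5 and DESeq2 1.42.1, and the build was mm10/GRCm38, with no roles given, and the annotation tool is not given in the sources used here. The labels' library protocol speaks of blastocysts, so how sperm libraries were made is not given in the sources used here. Oocyte and blastocyst samples were not analysed here.

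Reads were summed by the first annotation name, with end marks removed. Sequences with no annotation were left out of the fits and kept in library totals for shares. Counts per name and per distinct sequence were tested with edgeR 4.0.16 in R 4.3.3 (filterByExpr, TMM factors, quasi-likelihood test) in a model of genotype alone, at a Benjamini-Hochberg adjusted p of 0.05. Standard errors (SE) were log2 fold changes over the square root of F. The procedure was run on simulated counts with changes put in. The spread set there was not estimated from these libraries, so the run does not tell which changes these data could miss. Shares per library have exact Clopper-Pearson intervals (Python 3.11.15, scipy 1.17.1), and genotypes were compared by an exact permutation test over libraries. A RefSeq table (GRCm38.p6) gave the gene coordinates by tRNA name, and all 22 matched. With no mitochondrial genome sequence at hand, positions in mt-tRNA-His came from its own overlapping reads.

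Full values were given for each mt-tRNA with at least 5% of the class in any library and for the 2 with the smallest p in each direction. Printed sequences were the most abundant of each of the 6 leading mt-tRNAs and the 4 most abundant of the class, and 2 others were chosen after their values were seen. The members and lists were chosen with earlier results of these data known. Alternatives were DESeq2 1.42.0, limma-voom (limma 3.58.1), other scaling, other filters, other sets of reads, a replicate block and leaving out each library. The alternatives on ratios, on positions in mt-tRNA-His, on the fragment with the smallest p, on the shared core sequence, without mt-tRNA-His and with a crossed block were added after seeing the data.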

Additional observations from a re-analysis of the deposited data

How the results depend on the processing

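No mt-tRNA was called under any alternative, leaving out a library included, nor with DESeq2 or limma-voom. Of mt-tRNA sequences, 0 were called with all libraries in edgeR, 1 with DESeq2 (0.673% of all sequences called) and 1 with a filter of 10 reads in 2 libraries (1.16% of all). Leaving out 1 library in turn gave 0 to 46, the 46 without WT replicate 1, where 13.9% of all sequences were called. The cause was not tested. The log2 fold change of mt-tRNA-His, 0.31, was -0.10 with genome-matching sequences and -0.21 without rRNA names, and from -0.31 to 1.20 as libraries were left out in turn. That of mt-tRNA-Gln was from -0.088 to 1.41 over the same fits. The KO minus WT difference in the mt-tRNA share, 3.69 percentage points, was -0.36 of reads outside rRNA labels and -0.15 with genome-matching sequences. As libraries were left out in turn, it ran from -3.73 to 11.1. The same range was -3.21 to 2.53 percentage points for the share of mt-tRNA-His in the class (all libraries -0.34) and -0.058 to 0.076 for the effective number of mt-tRNAs (0.01). It was -0.95 to 0.38 for mt-tRNA per nuclear tRNA read, -0.64 to 4.98 per mitochondrial rRNA read and -7.10 to 0.95 percentage points for mt-tRNA-His reads that start after the anticodon. The shares of fragments of 30 nucleotides or longer and of added CC kept their direction under every alternative run. Leaving out 1 library could not have reversed them, since the groups did not overlap in either share. The alternatives on annotation names that were run left both values unchanged. Little of this was therefore a test of their direction. With the replicate number as a replicate block, 0 names, 0 mt-tRNAs and 0 mt-tRNA sequences were called. The labels do not say whether same-numbered libraries were made together. Their deviations from the group means had r = -0.25 over 63 names, but 2 pairs are too few to tell whether they share a batch. A crossed block, chosen after seeing the data, also called 0. With 2 libraries a genotype, a permutation test cannot go below p = 0.333, and WT replicate 1 had the fewest reads, which limits the counts of the rare mt-tRNAs.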

Other observations

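Some reads that carry the core of the leading mt-tRNA-His fragment were filed under other labels. Its last 19 bases were taken as the core. Shorter variants, such as the printed one of 25 bases that starts at the same base, end before the core does. The core is, with the 5′ end first:
mt-tRNA-His core, 19 bases: attagactgtgaatctgac
Of reads that hold this core, 91279 and 59994 in the KO libraries and 28797 and 23294 in the WT libraries were annotated as mt-tRNA. A further 3160 and 1941 in KO and 1350 and 2806 in WT had no annotation, and none of those 9257 reads matched the genome. Another 456 reads over the 4 libraries had a piRNA label. WT replicate 2 had the fewest annotated reads with the core, yet more without annotation than KO replicate 2 or WT replicate 1. KO replicate 1 had the most of both kinds. These are counts, not scaled to library depth. Adding these reads to mt-tRNA-His, an alternative chosen after seeing the data, changed the direction of none of the 4 measures it was run on: the share of the class in the library, the share of mt-tRNA-His in the class, the effective number of mt-tRNAs and the share of fragments of 30 nucleotides or longer.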
